A study of Mus musculus with 16 samples.

Results

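Transcripts of 10 chemokine and inflammatory cytokine genes (Ccl2, Ccl3, Ccl4, Ccl5, Ccl12, Cxcl9, Cxcl10, Cxcl16, Il1b and Tnf) were followed in RNA-seq libraries of whole mouse retina. Members were taken by gene symbol from a table of 54532 genes in uninjected retinas, and by the same gene identifier from a table of 48440 genes in injected retinas. All 10 were present in both tables. The 16 libraries came from C57BL6/J mice. Retinas taken without injection came from 3 wildtype and 3 Elovl2 point-mutant samples at 12 months, and from 4 wildtype samples at 18 months. The design text gives the Elovl2 substitution as C234W, whereas the labels of the mutant samples give C34W. Injected retinas came from wildtype mice at 18 months, 3 samples with 0.36 nmol of 24:5, a polyunsaturated fatty acid, injected into the vitreous of an eye, and 3 with vehicle injected into the opposite eye, all taken 5 days later. Elovl2 encodes a fatty acid elongase whose products include 24-carbon polyunsaturated fatty acids, and the design asks how the retina differs with age, with the mutant enzyme and with a supplied fatty acid. The labels name no separate animals, so each p-value measures only how much these samples vary, and that variation may be technical.

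Chemokines are small secreted proteins that bind receptors on leukocytes and guide them into tissue, and interleukin-1 beta and TNF are cytokines that start inflammatory gene expression in the cells that receive them. In the retina the usual sources of these transcripts are microglia, macrophages that enter from the blood, and, under stress, Mueller glia. Ccl2 and Ccl12 attract monocytes through the receptor Ccr2. Ccl3, Ccl4 and Ccl5 attract monocytes and T cells, and Ccl3 and Ccl5 act through Ccr1. Cxcl9 and Cxcl10 are induced by interferon and attract T cells through Cxcr3. Cxcl16 is made as a membrane protein, binds Cxcr6 and is shed by Adam10. Many of these genes are targets of NF-kB, the transcription factor downstream of the interleukin-1 and TNF receptors.

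Promoter sequences are shown for Cxcl10 and its neighbour Cxcl9, which share an inducer, and for Ccl3 and Tnf whose injected groups did not overlap. RefSeq windows (GRCm38.p6) were found for 6 of the 10 members, namely Ccl12, Ccl3, Cxcl9, Cxcl10, Il1b and Tnf. Each is the 250 bases before the RefSeq start, written 5′ to 3′ on the gene's own strand. Capitals mark every match, on either strand, to the kappaB consensus bound by NF-kB, to GAAA placed 2 bases before another GAAA, the core of an interferon-stimulated element, or to TATAAA, an element found near many starts. Cxcl10 (chr5:92348890-92349139, minus strand), Cxcl9 (chr5:92328080-92328329, minus strand), Ccl3 (chr11:83649379-83649628, minus strand) and Tnf (chr17:35202008-35202257, minus strand) read as follows.
Cxcl10: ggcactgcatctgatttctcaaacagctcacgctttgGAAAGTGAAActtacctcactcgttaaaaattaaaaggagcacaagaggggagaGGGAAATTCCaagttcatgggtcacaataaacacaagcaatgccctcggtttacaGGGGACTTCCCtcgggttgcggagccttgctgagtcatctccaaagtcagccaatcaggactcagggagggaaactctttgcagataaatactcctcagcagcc
Cxcl9: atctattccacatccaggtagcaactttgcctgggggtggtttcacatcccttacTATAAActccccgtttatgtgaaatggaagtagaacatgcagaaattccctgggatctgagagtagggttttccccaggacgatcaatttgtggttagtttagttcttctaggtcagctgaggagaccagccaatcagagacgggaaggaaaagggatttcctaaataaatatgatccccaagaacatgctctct
Ccl3: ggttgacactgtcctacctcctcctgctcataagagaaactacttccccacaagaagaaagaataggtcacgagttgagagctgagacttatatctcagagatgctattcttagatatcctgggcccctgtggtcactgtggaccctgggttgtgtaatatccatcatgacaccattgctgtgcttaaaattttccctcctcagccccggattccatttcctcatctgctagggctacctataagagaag
Tnf: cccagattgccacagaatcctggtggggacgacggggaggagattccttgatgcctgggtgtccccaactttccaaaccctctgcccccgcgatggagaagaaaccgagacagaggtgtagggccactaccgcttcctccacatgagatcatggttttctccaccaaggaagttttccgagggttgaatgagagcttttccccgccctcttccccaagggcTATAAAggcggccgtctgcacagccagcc

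The Cxcl10 window held the spaced GAAA pair as GAAAGTGAAA from 213 to 204 bases before the start, and 3 kappaB matches. These were GGGAAATTCC, from 159 to 150 bases before the start, and the overlapping GGGGACTTCC and GGGACTTCCC, which together span 104 to 94 bases before it. The other 5 windows held neither of these motifs. TATAAA lay 29 to 24 bases before the start of Tnf, 31 to 26 bases before those of Il1b and Ccl12, and 195 to 190 bases before that of Cxcl9. Among 32851 windows of 250 bases, 7.25% held a kappaB match, 2.98% held the spaced GAAA pair and 12.37% held TATAAA. A match describes letters and is not evidence of binding, and a window without one says nothing about the factor.

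The uninjected libraries held 12810558 to 30519417 reads, recovered from the deposited FPKM values (fragments per kilobase of gene, scaled to library size), and the injected libraries held 22066668 to 25609242 counts. To check the retina label, 5 rod photoreceptor markers were summed, and they stood at 9574 to 10908 FPKM uninjected and 32823 to 42418 CPM (counts scaled to the TMM-normalised library size) injected. In the injected libraries Irf9, an interferon signalling factor, and the lens crystallin Cryaa separated libraries across the treatments. Vehicle replicates 1, 2 and 3 had Irf9 at 61.3, 56.7 and 228 CPM, and the 24:5 replicates in the same order had it at 21.9, 205 and 158 CPM. For Cryaa the vehicle libraries gave 783, 962 and 63.3 CPM, and those with 24:5 gave 306, 64.1 and 22.6 CPM. Vehicle replicate 3, which was high for Irf9 and low for Cryaa, was also the lowest vehicle library for 8 members, all but Ccl4 and Cxcl10. The part of either difference in the member values was not tested.

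In the uninjected retina only Cxcl16 was abundant enough to judge, and the other 9 members were too low. A member was called too low when it had fewer than 10 reads in every library of a table, or when it failed the filter of the count test, which asks for about 10 reads in as many libraries as the smallest group holds. Cxcl16 (chr11:70453983-70459984 in mm10) was at 5.82, 3.71 and 3.54 FPKM in wildtype at 12 months. It was at 4.04, 4.47 and 4.36 FPKM in the mutant. Wildtype retinas at 18 months gave 4.79, 3.93, 4.48 and 3.81 FPKM. The 3 groups overlapped, and wildtype replicate 1 at 12 months was the highest of all 10 libraries.

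Age did not move Cxcl16 beyond the spread between libraries. Wildtype retinas averaged 4.36 ± 1.27 FPKM at 12 months (SD, n = 3) and 4.25 ± 0.463 FPKM at 18 months (SD, n = 4). The difference on the log2(FPKM + 1) scale was -0.01 (SE 0.136, limma adjusted p = 0.9999). Without wildtype replicate 1 at 12 months it was 0.18 (SE 0.0936, limma adjusted p = 0.9999). None of the 10 members was called with age, and none had groups that did not overlap, which held for 2.22% of tested genes lower and 1.95% higher at 18 months. Of the members only Cxcl16 was among those tested genes. Over 13786 genes limma called 0%, with an unadjusted p under 0.05 for 1.96% of genes lower and 1.69% higher. The unadjusted p of Cxcl16 was not under 0.05.

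The low CC chemokines gave few reads in uninjected retina. Ccl12 had 7, 1 and 0 reads in wildtype at 12 months and 4, 3, 3 and 6 reads at 18 months. Ccl5 had 7, 4 and 1 reads at 12 months and 11, 2, 5 and 7 reads at 18 months. Both pairs of groups overlapped. Ccl3 had 6, 0 and 8 reads at 12 months and 1, 1, 1 and 0 reads at 18 months, and the library with 0 reads at 12 months placed these groups in overlap as well. Ccl2, Il1b and Tnf never exceeded 6, 11 and 8 reads in any uninjected library. Ccl4 had 0 reads in all 7 wildtype libraries, and Cxcl9 had 1 read in 1 mutant library and 0 in the rest. A count of 0 allows up to 3 reads, or 0.0983 to 0.234 RPM (reads scaled to library size) at these depths, so absence was not shown; these limits cover counting error only.

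Genotype gave the same picture for Cxcl16, and Cxcl10 was the exception among the low members. Mutant retinas averaged 4.29 ± 0.226 FPKM of Cxcl16 (SD, n = 3) and differed from wildtype at 12 months by 0.01 on the log2(FPKM + 1) scale (SE 0.146, limma adjusted p = 0.9998). Cxcl10 (chr5:92346638-92348889) had 6, 4 and 0 reads in wildtype at 12 months, at 0.0896, 0.0902 and 0 FPKM. The mutant libraries had 6, 23 and 17 reads, at 0.158, 0.315 and 0.478 FPKM. Each mutant library lay above each wildtype library of that age in FPKM. Wildtype libraries at 18 months, at 0.0603, 0.0663, 0.249 and 0.0794 FPKM, overlapped the mutant.

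Summed over libraries and divided by depth, Cxcl10 reads were 5.01 times as frequent in the mutant as in wildtype at 12 months (46 against 10 reads, exact 95% interval 2.49 to 11.1). That interval covers counting error in these libraries only. Cxcl10 did not pass the FPKM filter, and in 2 fits that kept it the adjusted p was 1. With a mean FPKM of at least 0.1 as the filter, limma gave a difference of 0.31 (unadjusted p = 0.0158, adjusted p = 1). With edgeR on the recovered reads and no filter, it was 2.36 on the log2 scale (SE 0.751, unadjusted p = 0.0034, adjusted p = 1). Cxcl10 was the 1 member of 10 whose genotype groups did not overlap, against 3.05% of tested genes higher and 2.92% lower in the mutant without overlap. Of the members only Cxcl16 was among those tested genes, so these shares come from genes better measured than Cxcl10. The share of all 13786 tested genes that limma called for genotype was 0%, and an unadjusted p under 0.05 was met by 1.11% lower and 1.08% higher.

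Cxcl10 shares 133 of its 2252 exonic bases with Art3 on the opposite strand, and the strand setting of the counting is not given in the sources used here. The remaining low members had mutant and wildtype libraries at 12 months that overlapped or touched. Ccl3 had 2, 13 and 4 reads in the mutant, Ccl5 had 2, 5 and 4, and Ccl12 had 2, 7 and 6. These overlapped the wildtype reads given above. Il1b had 11, 5 and 0 reads in wildtype and 0, 3 and 1 in the mutant, a total of 16 against 4. Ccl2 had 6, 1 and 0 against 0, 3 and 5 reads, and Tnf 8, 0 and 3 against 0, 3 and 1. Ccl4 had 0, 4 and 2 reads in the mutant beside 0 in each wildtype library, so its groups touch at 0. With so few reads no difference could be judged.

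**Figure D1:**
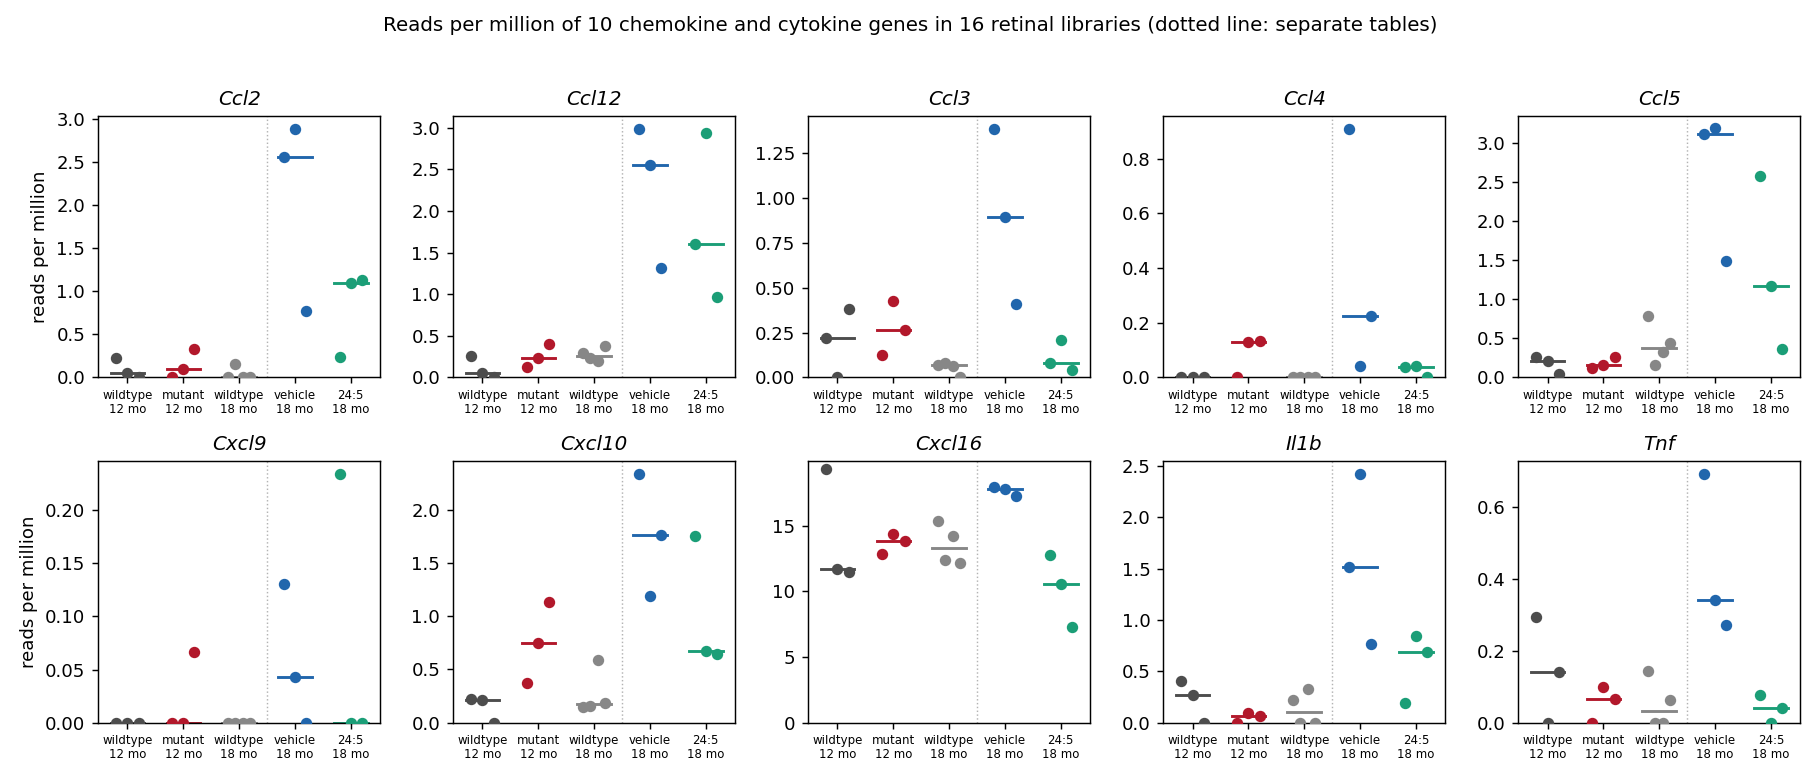
Level of each of the 10 genes in each of the 16 libraries, as RPM (vertical axes, separate scale for each gene), with each point a library and each horizontal line a group median. The uninjected and injected libraries come from separate tables. Cxcl16 lies far above the other genes in every group, and for Cxcl16, Ccl3 and Tnf the vehicle and 24:5 libraries do not overlap.

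Set beside the uninjected libraries, 5 members were higher in each vehicle library than in each of the 10 uninjected libraries. These were Ccl2, Ccl12, Ccl5, Cxcl10 and Il1b. Of 32909 genes with a read in either table, 13.1% separated in this way for vehicle and 10.7% for 24:5. The tables were made separately and share no group, so injection and table cannot be told apart and no test was made. Ccl2 ranged from 0 to 0.334 RPM in uninjected, from 0.770 to 2.89 in vehicle and from 0.234 to 1.13 in 24:5 libraries. Ccl12 ranged from 0 to 0.400, from 1.31 to 2.99 and from 0.969 to 2.94 RPM in the same order, and was the 1 member whose 24:5 libraries also all exceeded the uninjected ones. Cxcl16 did not separate in this way, at 11.5 to 19.3 RPM uninjected and 17.3 to 18.0 in vehicle, whereas its 24:5 libraries reached down to 7.26.

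In vehicle retinas the order of the members was led by Cxcl16 per unit of gene length. Cxcl16 stood at 5.78 ± 0.190 CPM per kilobase (SD, n = 3), Ccl12 at 4.22 ± 1.65 and Ccl5 at 2.68 ± 1.01. The ranges of Cxcl16 and Ccl12 touch, from 5.59 to 5.97 against 2.39 to 5.60 CPM per kilobase, so this pair was not separated. Ccl2, at 1.81 ± 0.998 CPM per kilobase, Ccl3, at 1.16 ± 0.650, Il1b, at 0.814 ± 0.427, and Cxcl10, at 0.777 ± 0.263, followed with overlapping ranges. Ccl4, at 0.595 ± 0.698, Tnf, at 0.264 ± 0.141, and Cxcl9, at 0.0191 ± 0.0221 CPM per kilobase, were the lowest.

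Between 24:5 and vehicle retinas no member was called by the main test, while all 6 members it could test had lower estimates with 24:5. The edgeR quasi-likelihood test called 0.0115% of 17466 genes. Ccl3, Ccl4, Cxcl9 and Tnf did not pass its count filter. Of the 6 tested members 2 had an unadjusted p under 0.05, Cxcl16 and Il1b, against 5.16% of all genes lower and 1.44% higher. Vehicle and 24:5 retinas are opposite eyes, and this unpaired test takes no account of libraries that may share an animal, since the labels do not say which do. With the replicate number as a block, 4 of the 6 members had an unadjusted edgeR p under 0.05 (Ccl5, Cxcl10, Cxcl16 and Il1b), beside 6.76% of all genes lower and 3.02% higher, and 0 were called. In the unblocked test the members' median log2 fold change was -0.82, beside 0.00 over all genes, of which 49.2% were below 0. DESeq2, run as an alternative, called 2 of the 10 members lower with 24:5, Cxcl16 and Ccl3, and 1.09% of 22238 genes lower. A bulk retina with fewer cells of a type and a retina with less RNA per cell cannot be told apart in these values.

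Ccl2 and Ccl12, the ligands of Ccr2, differed in how far their estimates lay from 0. Ccl2 (chr11:82035571-82037453) was at 2.57, 2.84 and 0.753 CPM in vehicle and at 0.238, 1.10 and 1.15 CPM in 24:5 libraries. Vehicle replicate 3 fell inside the 24:5 range, so the groups overlapped. The log2 fold change was -1.32 (SE 0.654, edgeR adjusted p = 0.846). Ccl12 was at 3.01, 2.51 and 1.29 CPM in vehicle and at 1.63, 2.96 and 0.982 CPM in 24:5 libraries. These groups overlapped over most of their range, and the log2 fold change was -0.29 (SE 0.458, edgeR adjusted p = 0.997).

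Among the other CC chemokines, Ccl3 had groups that did not overlap and Ccl4 and Ccl5 had groups that did. Ccl3 (chr11:83647844-83649355) had 32, 21 and 9 counts in vehicle and 2, 5 and 1 counts in 24:5 libraries, at 1.39, 0.877 and 0.399 against 0.0795, 0.211 and 0.0409 CPM. Its summed counts, 62 against 8, were 8.18 times as frequent in vehicle (exact 95% interval 3.90 to 19.8, counting error only). Ccl3 did not pass the filter of the main test. With no filter its log2 fold change was -2.96 (SE 0.650, edgeR adjusted p = 0.0636, where 0.293% of 28984 genes were called). DESeq2 gave -3.01 with an adjusted p of 0.0459. Over the 6 alternatives that could fit Ccl3, the adjusted p ran from 0.0459 to 0.838, and the log2 fold change from -3.77 to -2.59.

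Ccl4 had 21, 1 and 5 counts in vehicle and 1, 1 and 0 counts in 24:5 libraries. Of its 27 vehicle counts 21 came from replicate 1, and the groups met at 1 count. Its summed counts, 27 against 2, gave a ratio of 14.2 with an exact 95% interval from 3.58 to 124 for counting error. Ccl5 (chr11:83525778-83530518) was at 3.14, 3.13 and 1.46 CPM in vehicle and at 2.62, 1.18 and 0.368 CPM in 24:5 libraries. Replicate 1 of 24:5 lay within the vehicle range, and the log2 fold change was -0.88 (SE 0.638, edgeR adjusted p = 0.966). Without that library it was -1.73 (edgeR adjusted p = 0.338).

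The interferon-induced ligands of Cxcr3 were low or overlapping. Cxcl10 was at 2.35, 1.17 and 1.73 CPM in vehicle and at 1.79, 0.676 and 0.654 CPM in 24:5 libraries. Replicate 1 of 24:5 lay above 2 of the 3 vehicle libraries, and the log2 fold change was -0.74 (SE 0.462, edgeR adjusted p = 0.923). Without that library it was -1.39 (edgeR adjusted p = 0.295). The overlapping Art3 had 16 to 37 counts in these libraries, beside 16 to 54 for Cxcl10. Cxcl9 had 3, 1 and 0 counts in vehicle and 6, 0 and 0 counts in 24:5 libraries, which was too low to judge.

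Cxcl16 was the best measured member and had 1.69-fold lower estimates with 24:5. It had 414, 418 and 381 counts in vehicle, at 18.0, 17.5 and 16.9 CPM, and 328, 252 and 180 counts with 24:5, at 13.0, 10.7 and 7.36 CPM. Each 24:5 library lay below each vehicle library. The means were 17.5 ± 0.574 and 10.3 ± 2.85 CPM (SD, n = 3 each), and the log2 fold change was -0.75 (SE 0.193, edgeR unadjusted p = 0.00463, adjusted p = 0.359). DESeq2 gave the same size, -0.75 (SE 0.209), with an adjusted p of 0.0345. Cxcl16 shares 552 of its 3021 exonic bases with Zmynd15 on the opposite strand, which had only 18 to 35 counts in these libraries.

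Of the cytokines, Il1b was testable and Tnf was not. Il1b (chr2:129364570-129371139) was at 1.52, 2.38 and 0.753 CPM in vehicle and at 0.199, 0.845 and 0.695 CPM in 24:5 libraries. Vehicle replicate 3 lay below 24:5 replicate 2, so the groups overlapped. The log2 fold change was -1.42, a 2.68-fold lower estimate (SE 0.575, edgeR unadjusted p = 0.0393, adjusted p = 0.713). Tnf (chr17:35199381-35202007) had 16, 8 and 6 counts in vehicle and 2, 0 and 1 counts in 24:5 libraries, with each 24:5 library below each vehicle library. Its 30 against 3 summed counts gave a ratio of 10.6 (exact 95% interval 3.28 to 54.0, counting error only). With no filter the log2 fold change of Tnf was -3.25 (SE 0.889, edgeR adjusted p = 0.213).

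Counted over all 10 members, 3 had groups that did not overlap, Ccl3, Cxcl16 and Tnf, each lower with 24:5. Among the 6 that passed the filter this held for 1, Cxcl16. The share of all tested genes without overlap was 6.77% lower and 4.84% higher.

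**Figure D2:**
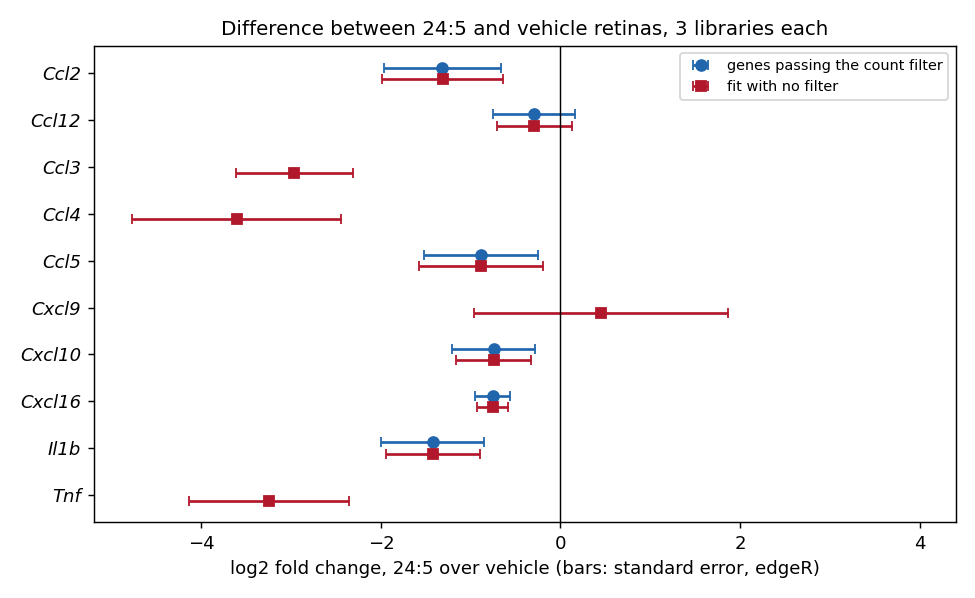
Log2 fold change of each gene, 24:5 over vehicle (horizontal axis), as points with the standard error as bars, from edgeR with 3 libraries a group. Circles are genes that passed the count filter and squares a fit with no filter. All genes but Cxcl9 lie below 0, and Ccl3, Ccl4, Cxcl9 and Tnf, with the fewest counts, appear only in the fit with no filter.

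The markers of microglia, monocytes and macrophages that could be tested had lower estimates with 24:5, and none was called. Mueller glia, another usual source, showed no single direction. Of their 5 markers 2 were lower, 1 of these at an unadjusted edgeR p under 0.05, and 3 were higher. The middle estimate of the 5 was 0.14 on the log2 scale, and 0 were called. The Mueller glia sums overlapped, at 2647 to 3544 CPM in vehicle and 2664 to 3531 CPM in 24:5 libraries. The summed CPM of 10 microglia markers was 119 to 198 in vehicle and 60.3 to 137 in 24:5 libraries, with all 10 estimates lower, 5 with an unadjusted edgeR p under 0.05 and a median log2 fold change of -0.82. The summed CPM of 9 monocyte and macrophage markers was 176 to 446 in vehicle and 66.5 to 104 in 24:5 libraries, without overlap. In uninjected retinas, where Ccr2 did not exceed 0.111 RPM, the same 9 markers summed to 39.7 to 73.7 RPM. The sum is therefore not a measure of monocytes alone, and its highest markers weigh most in it. All 7 of these that could be tested had lower estimates, 6 with an unadjusted p under 0.05, at a median of -2.34. Csf1r, a growth factor receptor of microglia, averaged 50.9 ± 12.5 CPM in vehicle and 27.6 ± 6.92 CPM in 24:5 libraries (SD, n = 3 each). Lyz2, a lysozyme of myeloid cells, was at 291, 138 and 49.4 CPM in vehicle and at 37.7, 23.7 and 7.32 CPM in 24:5 libraries. Over all genes, 5.16% were lower with an unadjusted p under 0.05. T and NK cell markers summed to 1.50 to 2.88 against 0.573 to 1.79 CPM, with Cd3d at 0 in vehicle and Klrb1c at 0 in 24:5 libraries. Neutrophil markers summed to 3.63 to 7.35 against 2.49 to 2.96 CPM, with Mpo and Camp at 0 in vehicle, and Ly6g and Camp at 0 in 24:5 libraries. The summed lens markers ran from 90.3 to 1332 CPM in vehicle and from 39.7 to 483 CPM in 24:5 libraries. Lower values were not particular to myeloid markers. Endothelial markers summed to 97.3 to 118 CPM in vehicle and 65.5 to 76.4 CPM in 24:5 libraries, without overlap. All 5 had lower estimates, 2 with an unadjusted edgeR p under 0.05, at a median log2 fold change of -0.38, and 0 were called. The part of these cell types in the member values was not tested.

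Relative to the microglia marker sum, Cxcl16 no longer separated the groups, at 9.12% to 14.2% of that sum in vehicle and 9.50% to 12.3% in 24:5 libraries. Ccl3 still did, at 0.335% to 0.705% against 0.0579% to 0.245%, as did Tnf, at 0.178% to 0.353% against 0% to 0.0678%. Relative to the monocyte and macrophage sum, Cxcl16 lay higher in 24:5 libraries, at 4.04% to 9.62% in vehicle and 10.2% to 13.8% with 24:5. Ccl3 stayed lower in 24:5 libraries by that measure, at 0.227% to 0.345% against 0.0615% to 0.203%, and Tnf at 0.131% to 0.156% against 0% to 0.0842%. The 24:5 values of Ccl3 and Tnf rest on 5 counts or fewer in each library. Neither marker sum was tested as a measure of cell number.

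**Figure D3:**
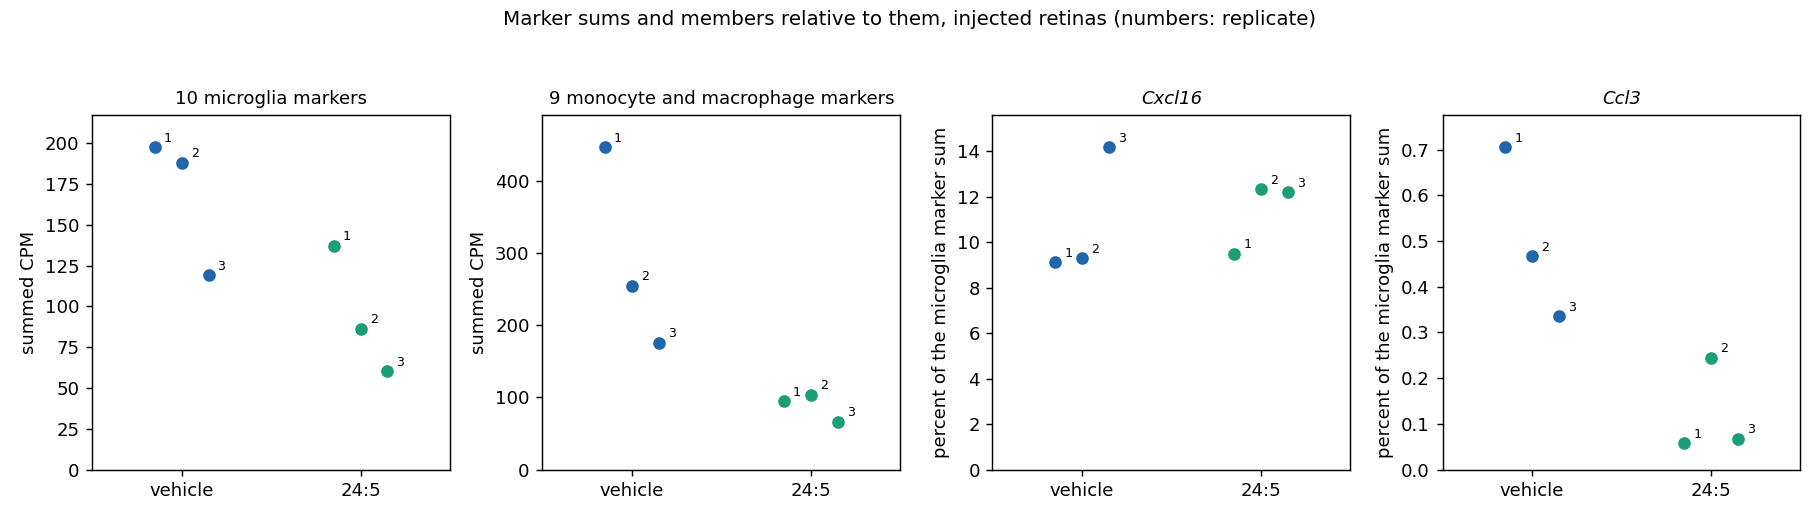
Summed CPM of the microglia markers and of the monocyte and macrophage markers, and Cxcl16 and Ccl3 as a percent of the microglia sum (vertical axes, from 0), in the vehicle and 24:5 libraries, each point a library with its replicate number. The groups overlap in the microglia sum and in Cxcl16 relative to it, and do not overlap in the monocyte and macrophage sum and in Ccl3 relative to the microglia sum.

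The receptor genes that could be tested all had lower estimates with 24:5. Of 23 chemokine receptor genes 8 could be tested, and all 8 had lower estimates. Of these, 5 had an unadjusted edgeR p under 0.05 (5.16% of all genes were lower at that p), the same number had groups that did not overlap (6.77% of all genes were lower in this way), and 0 were called. Their median log2 fold change was -1.19, while Ackr1 and Ackr3 lay near 0, at -0.05 and -0.07 with overlapping groups. Ccr2, the receptor of Ccl2 and Ccl12, was at 19.8, 19.6 and 9.53 CPM in vehicle and at 2.46, 3.47 and 0.613 CPM in 24:5 libraries. Each 24:5 library lay below each vehicle library, at a log2 fold change of -2.90 (SE 0.601, edgeR adjusted p = 0.300). In the uninjected retinas Ccr2 did not exceed 0.111 RPM. Ccr2 also stands in the monocyte and macrophage list, and another of the 8 receptor genes stands in the microglia list. The receptor list is therefore not independent of those markers.

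Ccr1, a receptor of Ccl3 and Ccl5, also had groups without overlap. It averaged 5.30 ± 0.952 CPM in vehicle and 1.79 ± 1.12 CPM in 24:5 libraries, a log2 fold change of -1.57 (SE 0.416, edgeR adjusted p = 0.409). Cxcr3, the receptor of Cxcl9 and Cxcl10, had 4, 18 and 2 counts in vehicle and 0 in each 24:5 library and did not pass the filter. Cxcr4, the receptor of Cxcl12, had a log2 fold change of -1.92 (SE 0.530, edgeR adjusted p = 0.438).

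Among 26 other chemokine ligands 11 could be tested, with 6 estimates lower and 5 higher, none called, and a median log2 fold change of -0.02. Ccl6, a macrophage chemokine, averaged 8.82 ± 6.41 CPM in vehicle and 2.27 ± 0.828 CPM in 24:5 libraries (log2 fold change -1.96, SE 0.655, edgeR adjusted p = 0.614). Ccl17, a ligand of Ccr4, went the other way, from 0.302 ± 0.0343 to 0.878 ± 0.325 CPM without overlap (log2 fold change 1.52, SE 0.419, edgeR adjusted p = 0.431). Ccl17 was low in vehicle and passed the count filter through its 24:5 libraries. Ccl28 and Cxcl13 had log2 fold changes of -0.98 and -1.14 with overlapping groups.

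Genes that carry the signals of Il1b and Tnf gave more lower than higher estimates, and none was called. Of 25 interleukin-1 and TNF signalling genes, all tested, 18 were lower and 7 higher, with a median of -0.19 and 4 lower at an unadjusted p under 0.05, beside 5.16% of all genes. Il1rn, the natural antagonist of interleukin-1, averaged 1.16 ± 0.473 CPM in vehicle and 0.341 ± 0.0555 CPM in 24:5 libraries (log2 fold change -1.74, SE 0.405, edgeR adjusted p = 0.284). Il1rn had only 7 to 10 counts in the 24:5 libraries and passed the count filter through its vehicle libraries. Tnfrsf1b, a receptor of TNF, averaged 11.5 ± 3.87 against 4.92 ± 1.78 CPM (log2 fold change -1.23, SE 0.342, edgeR adjusted p = 0.459). Casp1, the protease that matures interleukin-1 beta, averaged 1.90 ± 0.149 against 1.15 ± 0.0813 CPM, and Irak4, a kinase of the interleukin-1 receptor, 2.86 ± 0.282 against 1.53 ± 0.319 CPM. The groups of all 4 genes, which were named for the smallest p of the list, did not overlap. Over the whole list 6 genes were lower and 1 higher without overlap, beside 6.77% of all genes lower and 4.84% higher. The receptor genes Il1r1 and Tnfrsf1a had log2 fold changes of -0.17 (SE 0.311) and -0.19 (SE 0.463) with overlapping groups.

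Of 18 genes listed as NF-kB subunits and feedback genes 14 had lower and 4 higher estimates, with a median of -0.20. The list also holds the adhesion genes Vcam1 and Icam1. Of the lower genes 4 had an unadjusted edgeR p under 0.05, Vcam1 and Icam1 among them, again beside 5.16% of all genes. The feedback genes Tnfaip3 and Nfkbia had log2 fold changes of 0.29 (SE 0.269) and -0.17 (SE 0.133), and their groups overlapped. Vcam1, an adhesion molecule for leukocytes, was at 37.6, 39.8 and 30.8 CPM in vehicle and at 20.8, 21.4 and 16.8 CPM in 24:5 libraries. Its groups did not overlap and its log2 fold change was -0.88 (SE 0.133, edgeR adjusted p = 0.171). Birc3, an inhibitor of apoptosis, and Icam1, another adhesion molecule, had log2 fold changes of -1.37 (SE 0.313, edgeR adjusted p = 0.278) and -1.19 (SE 0.346, edgeR adjusted p = 0.459). Relb, an NF-kB subunit, had one of -0.56 (SE 0.207).

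Interferon signalling genes, which lie upstream of Cxcl9 and Cxcl10, were lower in 12 and higher in 3 of 15, with a median of -0.22. Of these, 3 were lower at an unadjusted edgeR p under 0.05 and 3 were lower without overlap, beside 5.16% and 6.77% of all genes. None was called. The interferon receptor chain Ifnar1 had a small log2 fold change of -0.26 (SE 0.0864, edgeR adjusted p = 0.531). Ifngr2, another such chain, had one of -0.27 (SE 0.0936, edgeR adjusted p = 0.583). The groups of both chains did not overlap. Gbp3 and Irf7 had -0.84 and -0.92 with groups that did. Of 21 other cytokine genes 11 could be tested, 6 lower and 5 higher, and 0 were called. Of the lower genes 3 had an unadjusted edgeR p under 0.05 and 2 had groups that did not overlap, beside the same shares of all genes. Spp1, the secreted phosphoprotein osteopontin, was at 154, 64.9 and 44.0 CPM in vehicle and at 19.5, 37.4 and 30.6 CPM in 24:5 libraries (log2 fold change -1.59, SE 0.555, edgeR adjusted p = 0.679). Tgfb1 had a log2 fold change of -1.14 (SE 0.338, edgeR adjusted p = 0.459), Il16 one of -1.05 with overlapping groups, and Il34, a ligand of Csf1r, one of -0.16. With age and with genotype, limma called 0 genes of any of these 6 lists.

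**Figure D4:**
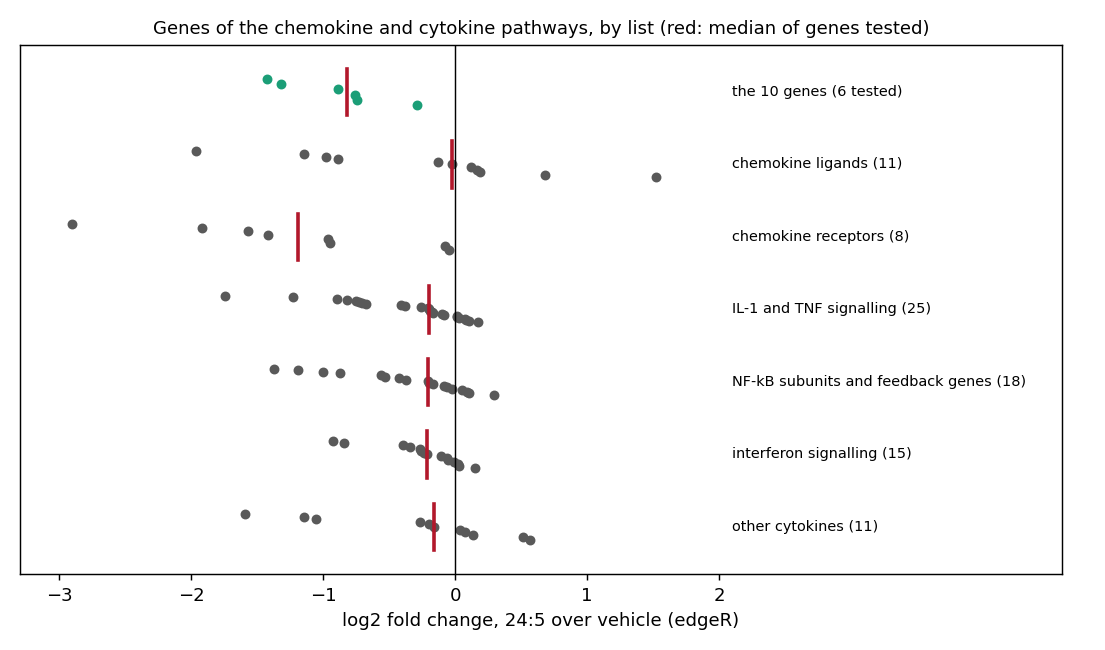
Log2 fold change, 24:5 over vehicle (horizontal axis), of each tested gene of the members and of the pathway lists named in the text, each point a gene and each vertical bar a list's median. The receptor list lies wholly below 0, with a median of -1.19, while the other chemokine ligands spread around a median of -0.02.

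The genes whose pattern over the 6 injected libraries was most like that of the 3 highest members were found among 11957 other genes with a mean of at least 5 CPM, by Pearson's r of log2 CPM. For Cxcl16 they were Psme1 (r = 0.989) and Fli1 (r = 0.988), and 1.8% of genes had an r above 0.9. For Ccl12 they were Btf3l4 and Fam160b2 (r = 0.992 each), and for Ccl5 Sema3b (r = 0.999) and Cyp2j9 (r = 0.995). With 6 libraries that share their treatment groups, these values are descriptions only.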

How the data were processed

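RNA of whole retinas from C57BL6/J mice was measured by poly(A)-selected, strand-marking RNA-seq, per the labels' protocols. The authors deposited FPKM values per gene, with gene length, for 10 uninjected libraries, and raw counts per gene for 6 injected libraries, per the file headers and values. The submitters' processing notes name HISAT2 2.2.1, featureCounts 2.0.6, DESeq2 1.42.0 and mm10, and neither the annotation release nor the strand setting is given in the sources used here. Of the count identifiers, 48092 of 48440 (99.3%) were matched to a symbol.

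Deposited FPKM times deposited gene length gave whole reads for 100% of values above 0, within 0.02 or a relative 1e-05 of a whole number. Between 8.54% and 13.4% of injected counts came from the structural RNAs Rn7sk, Rpph1 and Rmrp. Such a share is high for the poly(A) selection that the labels name, and whether that selection held for these libraries was not tested. No replicates were alike within counting noise (chi-square per degree of freedom 3.25 to 47.6).

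For counts, the test was that of edgeR 4.0.16 in R 4.3.3, by quasi-likelihood after filterByExpr and TMM scaling. FPKM were tested with limma 3.58.1 (trend, robust) on log2(FPKM + 1), which understates changes of low genes, over genes with a mean of at least 1 FPKM, with the 3 groups in 1 fit. Tests were two-sided, Benjamini-Hochberg adjusted, with a threshold of 0.05, and were checked on simulated data. That check changed only better counted genes and gave all genes the same spread, so it does not cover the low members. Intervals of summed counts are exact and cover counting error only. Alternatives were DESeq2, other scalings, filters and pseudocounts, a replicate block, each library left out, and edgeR on the recovered reads. The last called 1 gene of 17516 with age and 0 with genotype. Without a filter it called 2 and 0 of 33409, a setting chosen after seeing the data.

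All members were named. From each pathway list up to 4 genes with the smallest p were named, from the cell lists at most 3 of the highest, and for the 3 highest members the 2 genes most alike. Genes named outside this rule include Cxcr3, Il1r1, Tnfrsf1a, Tnfaip3 and Nfkbia. A gene of a pathway list and a gene of a cell list that the rule names are not reported here. The members and lists were chosen with earlier results of these data known.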

Additional observations from a re-analysis of the deposited data

Results flagged for a closer look

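In wildtype retinas at 18 months, the group of 4 libraries, 3 members had a library far from the others. Ccl2 was at 0.131 FPKM (2 reads) in replicate 2 and at 0 in the rest. Ccl3 was at 0 FPKM in replicate 4, where the others had 1 read each. Cxcl10 was at 0.249 FPKM (9 reads) in replicate 3, beside 2 or 3 reads in the others. Chance flags about 1 in 20 groups, a rate that need not hold for so few reads, and all 3 rest on fewer than 10 reads.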

How the results depend on the processing

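Under the alternatives no member was called in any comparison except by DESeq2, which called 2 in supplementation, Cxcl16 (adjusted p = 0.0345) and Ccl3 (adjusted p = 0.0459), where edgeR called 0. Leaving out each library in turn gave 0 to 0 called members in every comparison. All supplementation estimates of Ccl2, Ccl5, Cxcl10, Cxcl16 and Il1b were lower in their 10 alternatives. Ccl12 was lower in 9 of 10 and ran from -0.80 to 0.015 over the left-out libraries, the latter without 24:5 replicate 3. Over the left-out libraries, the log2 fold change of Cxcl16 ran from -0.96 to -0.56 (edgeR adjusted p of 0.185 or more), that of Il1b from -1.79 to -0.98, that of Ccl2 from -1.70 to -0.87, that of Ccl5 from -1.73 to -0.43 and that of Cxcl10 from -1.39 to -0.48. The near-zero differences of Cxcl16 in uninjected retina changed sign. With age they ran from -0.12 to 0.18 over the left-out libraries, and were 0.18 without wildtype replicate 1 at 12 months, and 0.021 and 0.033 without wildtype replicates 2 and 4 at 18 months. With genotype they ran from -0.10 to 0.19, and were -0.074 and -0.10 without wildtype replicates 2 and 3, -0.019 and -0.0045 without mutant replicates 2 and 3, -0.024 with edgeR on recovered reads, and -0.010 with that test and no filter. The cause was not tested. With a replicate block 0 members were called in each comparison, and the Cxcl16 difference with age was 0.033. Same-numbered injected libraries deviated from their group means with correlations of 0.48, -0.29 and 0.53, so the numbers were not taken to pair samples. Depth limits 9 members in uninjected and 4 in injected retina.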
